A study of Homo sapiens with 4 samples.

Results

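The mitochondrial ribosomal protein genes are the nuclear genes for the protein subunits of the ribosome inside mitochondria. Rows were taken as members where the gene symbol started with MRPL or MRPS and a digit, and symbols with a hyphen or a P suffix, which mark antisense, read-through and pseudogene rows, were left out. The rule gave 76 genes of the 19749 in the table, 47 with a large subunit symbol (MRPL) and 29 with a small subunit symbol (MRPS). All 76 had an adjusted p-value, so none was lost to the filter on low levels. The rule reads the symbol alone and no measured value.

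The study treated U87 cells, an established human glioblastoma line grown in serum-containing medium, with 5 µM YZ129 for 24 h (n = 2 libraries) or with the vehicle DMSO (n = 2 libraries), and sequenced poly(A)-selected RNA. The series title connects YZ129 with the HSP90, calcineurin and NFAT pathway, and the comparison asks which transcripts differ after treatment. The authors' deposited table holds 1 log2 fold change and SE per gene and no value per library, so the level in each group cannot be shown, and changes are given as YZ129 over DMSO on the log2 scale, ± SE. The labels do not say whether a group's libraries stem from separate cultures, so p-values measure the spread between libraries, which may be technical. The table does not state which group is the numerator and its name puts DMSO first. A positive change was read as higher with YZ129, because 11 of 17 heat shock genes, which cells induce when HSP90 fails, were called positive and 0 negative. Of all genes with an adjusted p, 5.24% were called positive and 7.64% negative. The heat shock list was chosen with earlier results of these data known, and its HSP90AA1, HSP90AB1, HSPD1 and HSPE1 stayed between -0.04 and 0.05. Under the opposite reading every direction below turns round and sizes and p-values stay.

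Over all rows, 14812 genes had an adjusted p-value and are called tested here. Of these, 1908 were called at an adjusted p of 0.05, which is 12.9% (5.24% higher and 7.64% lower). The mesenchymal glioma markers VIM and CD44 had mean levels of 298885 and 134994 normalized reads in the authors' deposited table, while the blood markers PTPRC and CD3E stood at 2.28 and 0.426. GFAP, the marker of astrocytes, stood at 52.2 normalized reads and OLIG2 at 96.2 in the authors' deposited table. The mean level covers 8 libraries, 4 more than the samples described, as the steps in the lowest values show, so it is an overall level and not that of a group. No label or header says whether the other 4 libraries also entered the authors' dispersion estimate, which bears on every SE, interval, p-value and call below.

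Mitochondrial ribosomes translate the few messages of the mitochondrial genome, all of which encode core subunits of the respiratory chain and the ATP synthase. Their rRNAs come from the mitochondrial genome, whereas every protein subunit is encoded in the nucleus, made in the cytosol and imported. The small subunit binds and decodes the message, and the large subunit joins the amino acids and leads the new chain through its exit tunnel to the inner membrane. Part of the proteins descend from bacterial ribosomal proteins and part have no bacterial counterpart and are found only in mitochondrial ribosomes.

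Of the 76 genes, 1 was called, MRPL17, which fell with YZ129; 0 rose and 75 did not pass. That is 1.32% of the members, beside 12.9% of all tested genes and 14.2% of the 8653 tested genes within the members' range of mean level. At an unadjusted p of 0.05 there were 10 members (13.2%), 4 higher and 6 lower, beside 24.9% of all tested genes. At an adjusted p of 0.1 there were 6, 1 higher and 5 lower (MRPS30 above 0; MRPL17, MRPL28, MRPL23, MRPS6 and MRPS16 below), beside 17.4% of all tested genes (7.26% higher and 10.2% lower). No test of this share against other genes was made, since the members are not replicates of the treatment.

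MRPL17 encodes the counterpart of bacterial L17, a large subunit protein near the mouth of the exit tunnel. In the authors' deposited table it fell by 0.57 ± 0.17 on the log2 scale, a 1.48-fold lower level, with an adjusted p of 0.00939 and a 95% interval from -0.90 to -0.24. Its mean level was 3774 normalized reads. It also passed when p was adjusted over every row of the table and at an adjusted p of 0.01.

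**Figure D1:**
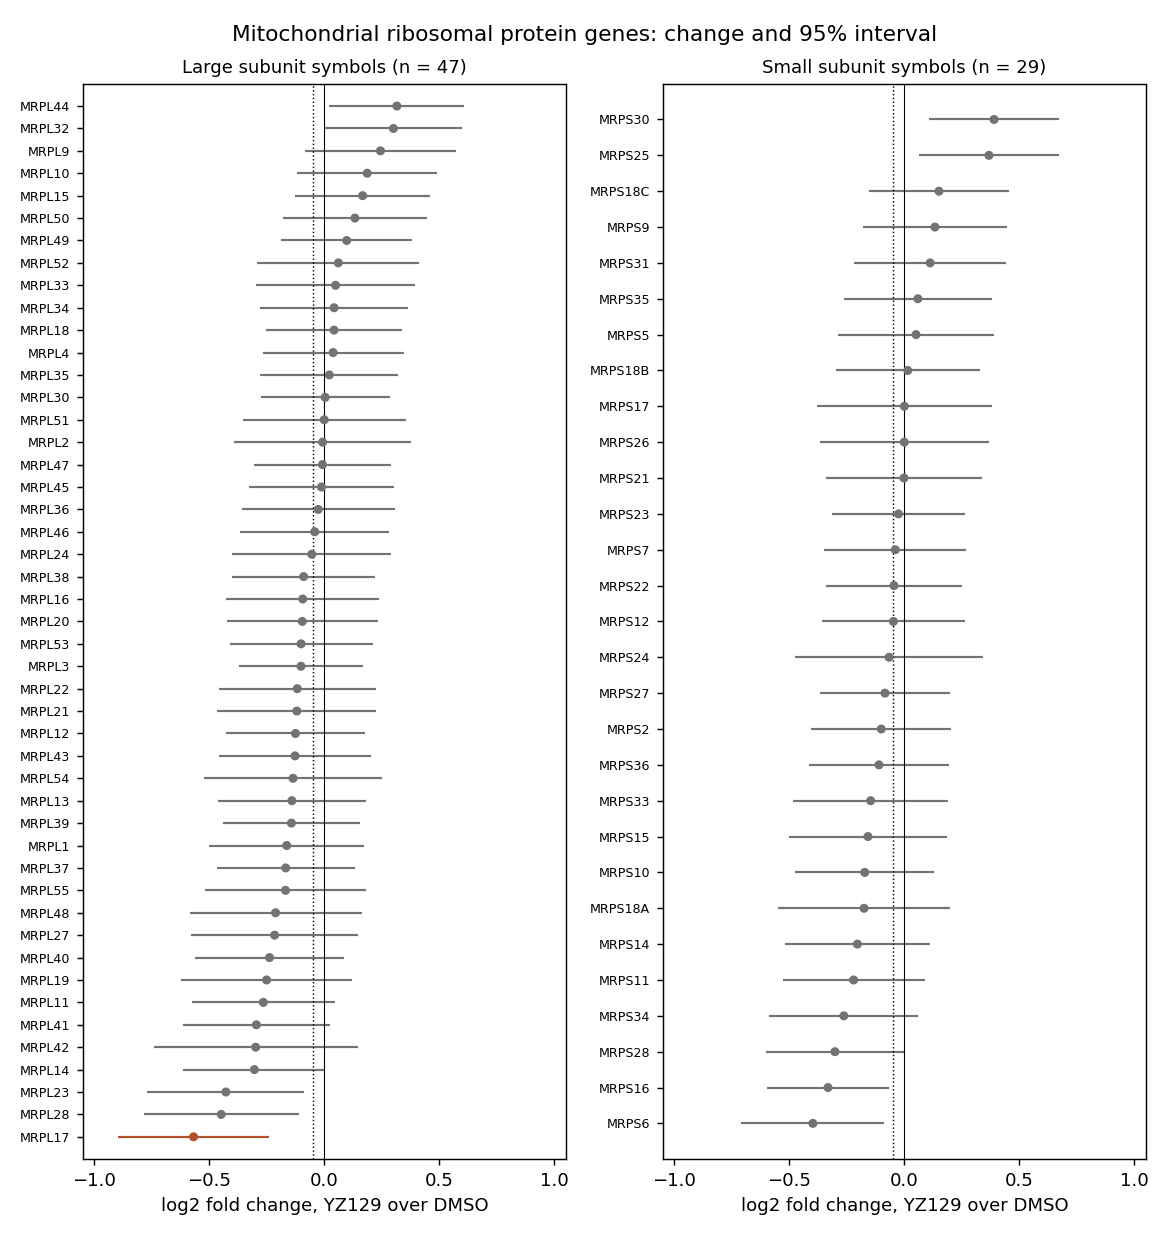
Log2 fold change (YZ129 over DMSO) of each of the 76 genes with its 95% interval (1.96 SE), large subunit symbols on the left and small subunit symbols on the right, ordered by change. The solid line marks 0 and the dotted line the median of all tested genes (-0.05). MRPL17, at the bottom left in colour, is the 1 called gene, and every interval lies inside -1 to 1.

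Promoter windows are shown for the lowest and the next lowest member, both large subunit genes, and for the highest, MRPS30, because these stand at the ends of the range and each holds a different one of the searched motifs. The sequences are RefSeq's for GRCh38.p14, from 250 bases before the gene start to 50 after it, 5′ to 3′ on the gene's strand, with motif matches in capitals. MRPL17 (chr11:6683291-6683590, minus strand) holds matches to the NRF1 motif, MRPL28 (chr16:370489-370788, minus strand) a match to the ETS motif bound by GABPA, and MRPS30 (chr5:44808697-44808996, plus strand) a match to the YY1 motif.
MRPL17: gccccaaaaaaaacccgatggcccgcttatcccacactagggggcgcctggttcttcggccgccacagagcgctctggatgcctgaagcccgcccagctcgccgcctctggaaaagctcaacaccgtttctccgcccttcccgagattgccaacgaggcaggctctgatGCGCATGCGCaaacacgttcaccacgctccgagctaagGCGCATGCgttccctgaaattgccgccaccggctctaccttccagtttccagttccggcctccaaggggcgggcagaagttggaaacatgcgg
MRPL28: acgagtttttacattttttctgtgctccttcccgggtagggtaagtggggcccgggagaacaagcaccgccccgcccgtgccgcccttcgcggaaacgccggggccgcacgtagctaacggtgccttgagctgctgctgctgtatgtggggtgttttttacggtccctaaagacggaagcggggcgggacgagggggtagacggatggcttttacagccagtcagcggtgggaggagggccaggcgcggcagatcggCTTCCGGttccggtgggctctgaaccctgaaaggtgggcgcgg
MRPS30: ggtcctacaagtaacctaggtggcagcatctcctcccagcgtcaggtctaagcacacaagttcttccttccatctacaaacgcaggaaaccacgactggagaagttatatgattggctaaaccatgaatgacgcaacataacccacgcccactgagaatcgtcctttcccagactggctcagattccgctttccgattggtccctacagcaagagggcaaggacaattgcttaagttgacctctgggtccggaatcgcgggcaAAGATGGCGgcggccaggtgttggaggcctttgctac

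The motifs searched on both strands were GCATGCGC for NRF1 (nuclear respiratory factor 1), CCGGAAG for ETS factors such as GABPA, and AANATGGCG for YY1, 3 factors known to act on nuclear genes for mitochondrial proteins. Promoters were found for 67 of the 76 members. Of these, 28 (41.8%) held the ETS motif, 18 (26.9%) the YY1 motif and 6 (8.96%) the NRF1 motif, beside 18.0%, 6.59% and 5.34% of 10435 tested genes with a window of this length. The MRPL17 window carries the NRF1 letters at 3 places, 2 of which overlap as the arms of 1 palindrome that starts 81 bases before the gene start. Large and small subunit genes held the ETS motif in 40.0% and 44.4% of their windows and the YY1 motif in 27.5% and 25.9%.

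The median log2 fold change was -0.09 for the 28 with the ETS motif and -0.05 for the 39 without it, and -0.05 for the 18 with the YY1 motif and -0.09 for the 49 without. The 6 with the NRF1 motif ranged from -0.57 (MRPL17) to 0.30 (MRPL32), with a median of 0.04, against -0.09 for the 61 without. MRPL44 and MRPS6, the highest large and the lowest small subunit gene, held none of these letters in this window. A match is a description of the letters and not a bound site. The factors' own transcripts were measured too: NRF1 had a log2 fold change of -0.06 ± 0.15, GABPA -0.03 ± 0.45 and YY1 0.02 ± 0.18 in the authors' deposited table. None passed.

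The large subunit genes had 1 fall and 0 rises among 47 by the authors' DESeq2-type adjusted p. The small subunit genes had 0 falls and 0 rises among 29, and 12.9% of all tested genes were called. At an unadjusted p of 0.05 there were 5 large (10.6%) and 5 small subunit genes (17.2%), beside 24.9% of all tested genes. Median log2 fold changes of large and small subunit genes were -0.10 and -0.05, beside -0.05 for all tested genes and -0.09 for those in the members' range of level. The difference (large minus small) was -0.05. The interquartile range ran from -0.17 to 0.03 in the large subunit and from -0.17 to 0.01 in the small, and the SD over genes was 0.18 in each. Below 0 were 33 of 47 large and 21 of 29 small subunit genes, 71.1% of all members, beside 56.0% of all tested genes and 62.5% of those in the members' range of level. The difference between subunits was not tested, as genes are not replicates; in members at or above their median level it turned to 0.06.

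**Figure D2:**
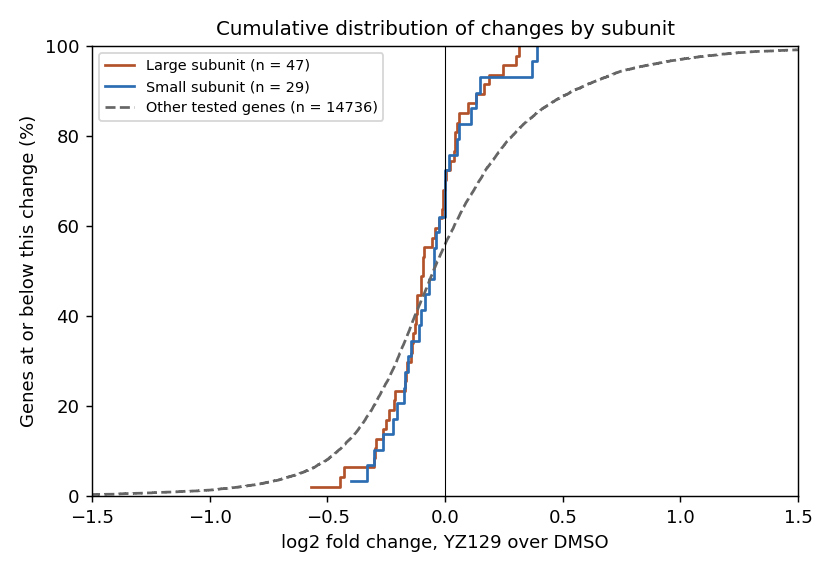
Share of genes (%, vertical axis) at or below each log2 fold change (YZ129 over DMSO, horizontal axis) for large subunit genes, small subunit genes and the other tested genes. Both subunit curves climb steeply between about -0.5 and 0.5 and nearly coincide, and the curve of other genes is wider on both sides.

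Of 76 members 75 (98.7%) changed by less than 0.5 in size, beside 80.8% of all tested genes and 88.7% of those in the members' range of level. The 95% interval lay wholly inside -1 to 1, a doubling or halving, for 76 of 76 members, beside 76.2% of all tested genes and 92.8% of those in the range. It lay wholly inside -0.5 to 0.5 for 49 members (64.5%), beside 30.2% and 42.5%. The SD of the Wald score, the change divided by its SE, was 1.13 over members and 2.01 over all tested genes. A member with the median SE needed a change of 0.44 (1.36-fold) to be called, so smaller changes were not detectable at that SE. The SEs of members ran from 0.136 to 0.227, so the change needed was smaller for some members and larger for others.

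**Figure D3:**
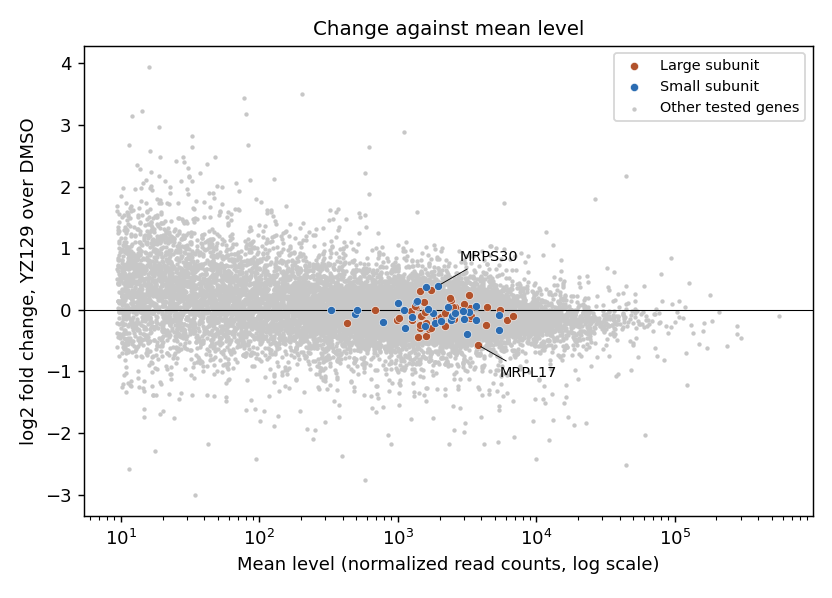
Log2 fold change (YZ129 over DMSO) against mean level (normalized reads, log scale) for members, coloured by subunit, and the other tested genes in grey. The members lie between mean levels of 328 and 6814 and between -0.57 (MRPL17) and 0.39 (MRPS30).

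After MRPL17 the lowest large subunit genes were MRPL28 and MRPL23. In the authors' deposited table MRPL28, the counterpart of bacterial L28, had -0.45 ± 0.17 (adjusted p = 0.0638). MRPL23 corresponds to L23, which lines the rim of the exit tunnel in bacteria, and the authors' deposited table gives it -0.43 ± 0.17 (adjusted p = 0.0855). Neither passed. MRPL14 (-0.30 ± 0.16) and MRPL42 (-0.30 ± 0.23), a protein without bacterial counterpart, completed the lowest 5 in the authors' deposited table.

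At the other end of the large subunit stood MRPL44, which has the fold of an RNase III enzyme, with 0.32 ± 0.15 (adjusted p = 0.158) in the authors' deposited table. MRPL32 followed with 0.30 ± 0.15 (adjusted p = 0.199); in mouse and yeast the m-AAA protease of the inner membrane cuts this protein before it can join the ribosome. MRPL9 (0.24 ± 0.17), MRPL10 (0.19 ± 0.16) and MRPL15 (0.17 ± 0.15) were next in the authors' deposited table. These 5 did not pass.

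In the small subunit the lowest genes were MRPS6 and MRPS16, counterparts of bacterial S6 and S16. The authors' deposited table lists MRPS6 at -0.40 ± 0.16 (adjusted p = 0.0775) and MRPS16 at -0.33 ± 0.14 (adjusted p = 0.0881). MRPS28 (-0.30 ± 0.15), MRPS34 (-0.26 ± 0.16) and MRPS11 (-0.22 ± 0.16) followed in the authors' deposited table. None of these 5 passed.

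The highest member of either subunit was MRPS30, first described as the programmed cell death protein PDCD9. In the authors' deposited table it had 0.39 ± 0.14, with an adjusted p of 0.0504, just outside the threshold, and an interval from 0.11 to 0.67. MRPS25, found only in mitochondrial ribosomes, had 0.37 ± 0.16 (adjusted p = 0.103) in the same authors' deposited table. MRPS18C (0.15 ± 0.16), MRPS9 (0.13 ± 0.16) and MRPS31 (0.11 ± 0.17) came next in the authors' deposited table, all with intervals that cover 0.

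Some symbols place a protein in the wrong subunit. MRPS30 and MRPS18A sit in the large subunit of the human mitochondrial ribosome, and MRPS36 is now known as a part of the 2-oxoglutarate dehydrogenase complex. MRPS18A had -0.18 ± 0.19 and MRPS36 -0.11 ± 0.16 in the authors' deposited table. With proteins placed by structure, 49 large and 26 small subunit genes had medians of -0.10 and -0.05, and the highest small subunit gene was then MRPS25. The MRPS18 paralogs, all descended from bacterial S18, did not share a sign: MRPS18A was below 0, MRPS18B at 0.01 ± 0.16 and MRPS18C above 0 in the authors' deposited table, with intervals that overlap.

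By location in the ribosome, the 6 proteins assigned to the exit tunnel here held the 1 call, 16.7%, beside 12.9% of all tested genes. All 6 of them (MRPL17, MRPL22, MRPL23, MRPL24, MRPL45 and MRPL47) were below 0, from -0.57 to -0.01, with a median of -0.09, and 5 did not pass. MRPL45 and MRPL47 both stood at -0.01. Of the 35 members given no location, 13 were above 0, MRPL4 (0.04 ± 0.16) among them, so a wider tunnel list need not share the sign. Of large subunit genes 70.2% were below 0, and of tested genes in the members' range of level 62.5%. The stalk, where translation factors bind, was represented by MRPL10, which anchors it, MRPL11 at its base and MRPL12, its mobile part, which also binds the mitochondrial RNA polymerase. MRPL11 had -0.27 ± 0.16 and MRPL12 -0.13 ± 0.16 in the authors' deposited table, against the 0.19 of MRPL10, and 0 of the 3 passed. The 6 proteins of the central protuberance, the crest of the large subunit, had a median of -0.15 (from -0.24 to 0.04), and 5 were below 0. In the small subunit the 8 head proteins had a median of -0.05 and the 18 body proteins -0.05.

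The 27 proteins found only in mitochondrial ribosomes had a median of -0.05, and the 48 with a bacterial counterpart had a median of -0.09. By the authors' DESeq2-type adjusted p the 27 had 0 calls and the 48 held the 1 call (2.08%), beside 12.9% of all tested genes. At an unadjusted p of 0.05 there were 3 of the 27 (11.1%), 3 higher and 0 lower, and 7 of the 48 (14.6%), 1 higher and 6 lower, beside 24.9% of all tested genes. The difference between these classes was not tested. Across the 76 genes the correlation of change with log10 mean level was Pearson's r = -0.04 and Spearman's rho = -0.002. With log10 transcript length it was r = 0.08 and rho = 0.09. These describe genes that share the same libraries.

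The mean levels, not corrected for transcript length, ran from 328 normalized reads for MRPS17 to 6814 for MRPL3, with a median of 1911. The 3 highest such values of the large subunit were those of MRPL3, MRPL37 (6161) and MRPL51 (5461), and of the small subunit those of MRPS16 (5411), MRPS27 (5408) and MRPS35 (3665), in the authors' deposited table. Per kilobase of transcript, with the median length of the coding transcripts in GENCODE 29, the median mean level was 1803 normalized reads for large and 1405 for small subunit genes. On this scale the members ran from 178 normalized reads per kilobase for MRPS17 to 9912 for MRPL51. These levels are not split by treatment, and the lengths are not those of the authors' annotation.

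The exons of many members overlap those of a neighbour in position, mostly on opposite strands. In GENCODE 29 the exons of 34 members overlap those of another gene, and for 13 members such an overlap lies on the same strand. With a protein-coding neighbour, 23 pairs of 20 members could be matched to the table, 19 of them on opposite strands. No source used here says whether reads were counted by strand, so reads from overlapping exons may be shared. Of the 22 tested neighbours 1 was called higher and 1 lower, beside 5.24% and 7.64% of all tested genes. Of these 20 members 0 were called, beside 12.9% of all tested genes. C10orf2 (now TWNK), the helicase that unwinds mitochondrial DNA, rose by 0.80 ± 0.16 (adjusted p = 1.98e-05) in the authors' deposited table, while MRPL43, on the opposite strand, had -0.13 ± 0.17. In the authors' deposited table NCAPD2, a condensin subunit, fell by 0.56 ± 0.14 (adjusted p = 0.0013) and its neighbour MRPL51 stood at -0.0003 ± 0.18.

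Some pairs lie on the same strand. The myo-inositol transporter gene SLC5A3 lies within the MRPS6 locus and had -0.34 ± 0.41 in the authors' deposited table, beside the -0.40 of MRPS6. DNAJC9, a histone chaperone gene, had -0.39 ± 0.14 (adjusted p = 0.0507) beside the -0.33 of MRPS16 in the authors' deposited table. For TMEM8A, whose exons overlap those of MRPL28, the authors' deposited table gives -0.14 ± 0.16. How far shared reads enter these values was not tested.

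**Figure D4:**
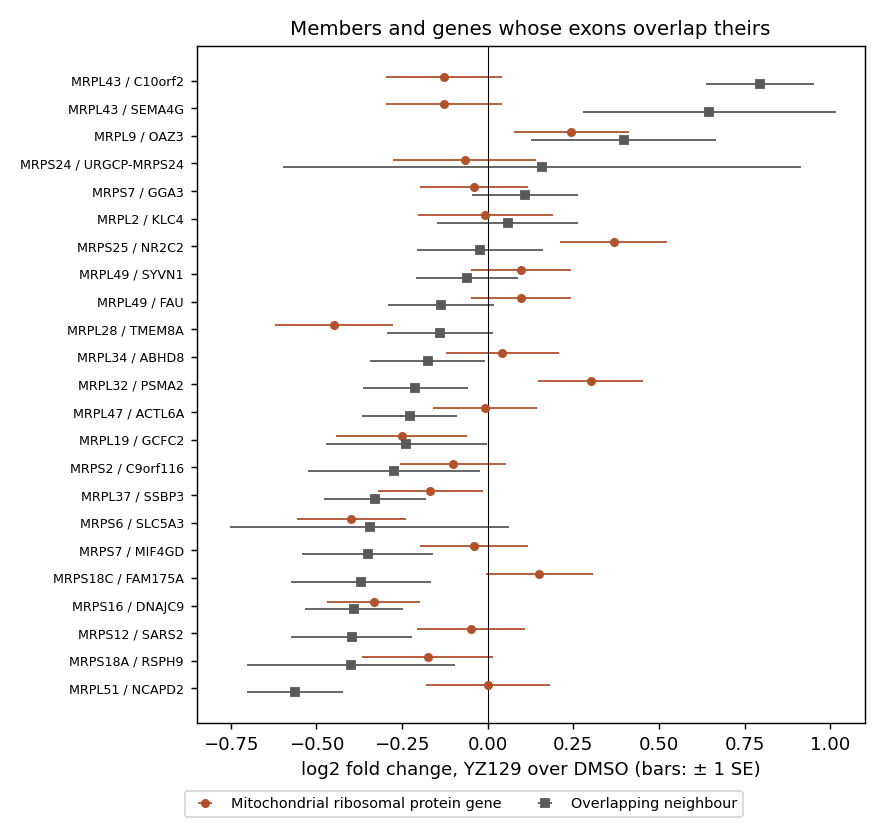
Log2 fold change (YZ129 over DMSO, ± 1 SE) of members (circles) and of the protein-coding genes whose exons overlap theirs (squares), 1 pair per row, ordered by the neighbour. The top row shows C10orf2 at 0.80 beside MRPL43 at -0.13, and the bottom row NCAPD2 at -0.56 beside MRPL51 near 0.

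Other parts of the mitochondrial ribosome and its pathway were counted by lists, each to be read beside the 12.9% of all tested genes called. The 7 subunits whose symbols do not start with MRPL or MRPS had 0 calls by the authors' DESeq2-type adjusted p, 0 at an unadjusted p of 0.05, and a median of -0.13. They ranged from -0.31 ± 0.17 for GADD45GIP1, at the large subunit, to 0.12 ± 0.14 for PTCD3, an RNA-binding protein of the small subunit, in the authors' deposited table. DAP3, a GTP-binding protein of the small subunit head, had -0.01 ± 0.16 and ICT1, a peptidyl-tRNA hydrolase built into the large subunit, -0.19 ± 0.17 in the authors' deposited table.

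Of 14 translation factors 0 passed by the authors' DESeq2-type adjusted p (1 at an unadjusted p of 0.05), with a median of 0.004. Of 26 assembly and rRNA modification factors 1 fell and 0 rose (median -0.01). That gene was TFB1M, which dimethylates the small subunit rRNA, at -0.45 ± 0.16 (adjusted p = 0.0427) in the authors' deposited table. Among 20 mitochondrial aminoacyl-tRNA synthetases and related enzymes 1 rose and 0 fell. That was AARS2, for alanine, which the authors' deposited table lists at 0.47 ± 0.15 (adjusted p = 0.0192).

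Of 25 genes for mitochondrial transcription, DNA maintenance and RNA handling 2 rose and 0 fell (8.0%), with a median of 0.04, and 6 (24.0%) were past an unadjusted p of 0.05, beside 24.9% of all tested genes. Besides C10orf2 this was FASTKD5, which helps process mitochondrial messages that no tRNA separates (0.45 ± 0.16, adjusted p = 0.0479 in the authors' deposited table). TFAM, which packages mitochondrial DNA, had -0.03 ± 0.21 and LRPPRC, which stabilizes mitochondrial messages, -0.28 ± 0.14 in the authors' deposited table. Neither passed.

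Among 12 nuclear regulators of such genes 1 rose and 2 fell, beside 12.9% of all tested genes. At an unadjusted p of 0.05 there were 4 of the 12, 2 higher and 2 lower, beside 24.9% of all tested genes. This list was chosen with earlier results of these data known, so its share of calls cannot be read as an excess. PPARGC1A, the coactivator PGC-1alpha, rose by 1.08 ± 0.27 (2.11-fold, adjusted p = 0.00101) in the authors' deposited table, at a mean level of 149 normalized reads. MYC, which activates genes of growth and ribosome production, fell by 0.61 ± 0.14 (1.52-fold lower, adjusted p = 0.000407) in the authors' deposited table. SP1, a factor that binds GC boxes, fell by 0.53 ± 0.15 (adjusted p = 0.00441) in the authors' deposited table.

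Set beside related gene families, the members' median was -0.09, that of 81 cytosolic ribosomal protein genes -0.12 and that of 89 respiratory chain and ATP synthase genes -0.22. The cytosolic ribosomal and the respiratory chain set were both taken by the gene symbol, so they may hold genes other than those for subunits. In the respiratory chain set the highest change, 0.45, was that of UQCRHL, and the lowest mean level was 10.7 normalized reads. In the cytosolic ribosomal set the extremes were RPL22L1 (-0.29) and RPL7L1 (0.17), and the lowest mean level was 39.8. The cytosolic ribosomal genes had 0 calls by the authors' DESeq2-type adjusted p and the respiratory chain genes 2 falls and 0 rises. That is 2.25% of the respiratory chain genes, beside 12.9% of all tested genes. At an unadjusted p of 0.05 there were 0 cytosolic ribosomal genes and 12 respiratory chain genes (13.5%), 1 higher and 11 lower. The share of all tested genes was 24.9%. Below 0 were 71.1% of the members, 91.4% of the cytosolic ribosomal and 93.3% of the respiratory chain genes. The median mean levels, not corrected for length, were 1911, 17874 and 3213 normalized reads in that order, and the median change was -0.05 over all tested genes and -0.09 over those in the members' range of level. The SD of the change over genes was 0.18 in the members, 0.09 in the cytosolic ribosomal and 0.16 in the respiratory chain genes, beside 0.46 over all tested genes. The differences between families were not tested.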

How the data were processed

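Poly(A) RNA of U87 cells was sequenced in 4 libraries, grouped by their titles. The 1 deposited file holds a comparison made by the authors and nothing per library. TopHat2 2.0.12, Cufflinks 2.2.1, Cuffdiff and hg19 are named, with no roles, per the submitters' processing notes; per the file headers the columns are those of a DESeq2 results table. No source used here names the counter, strand setting or annotation.

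Per the file headers, the authors gave a mean level, a normalized signal (counts divided by size factors). The authors also deposited a log2 fold change, moderated towards 0, with its SE and a Wald score. The deposited p-values are two-sided normal p-values of that score, given raw and adjusted by the authors. On the deposited values the score equalled change over SE for 19749 rows, and the adjusted p a Benjamini-Hochberg adjustment over 14812 genes. The other 4937, all at a mean level of 9.43 or less, had a raw p-value but no adjusted one, and do not count as tested here. The 525 genes with 2 reads were sums of 8 steps (tolerance 1e-07), and their changes reached at most 0.58 in size, which an unmoderated ratio would exceed.

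Calls are the authors' adjusted p under 0.05. Added here, in Python 3.11.15 with pandas 2.3.3, were counts, medians, 95% intervals (1.96 SE), promoter motif matches and exon overlaps. Scripts were tested on simulated data. Depth in reads is unknown. Members, lists and the rule for named genes (called members, the 5 highest and lowest changes and 3 highest levels per subunit, paralogs, stalk, misplaced symbols, called pathway genes) were chosen with earlier results of these data known; neighbours, motifs and other pathway genes were named after their values were seen.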

Additional observations from a re-analysis of the deposited data

How the results depend on the processing

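The 1 call, MRPL17, also held at an adjusted p under 0.01, with p adjusted over every row, for changes of at least 0.5, with subunits by structure and with other symbols added. At an adjusted p under 0.1 the count came to 1 higher and 5 lower, namely 3 lower in the large subunit and 1 higher and 2 lower in the small, beside 7.26% higher and 10.2% lower of all tested genes. The medians have no replicate error, and some signs depended on the setting. Centred on genes of like level, the median was 0.0173 for all members, -0.00297 for the large and 0.0366 for the small subunit. In members at or above their median level it was -0.0335 for the large and -0.0926 for the small subunit, and large minus small turned to 0.0591. With means, large minus small was -0.0262. The cause was not tested. The other medians, structure and other symbols included, stayed within 1.5 times the reported value and kept their sign. No paired analysis was possible because the deposited table holds no values per library; leaving out each library could not be run for the same reason. The direction of the comparison is a reading and not stated in the table, and depth per library is unknown.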

Other observations

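Rows that the symbol rule left out included pseudogenes of members. In the authors' deposited table MRPS31P5 had a log2 fold change of 0.75 ± 0.32 (adjusted p = 0.105) at a mean level of 82.7 normalized reads, MRPL45P2 0.30 ± 0.27 and MRPL42P5 -0.03 ± 0.36. None passed. The parent genes stood at 0.11 (MRPS31), -0.01 (MRPL45) and -0.30 (MRPL42), and whether reads are shared with them was not tested.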
